A study of Mus musculus with 4 samples.

Results

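Krt1, Krt2, Krt10, Krt77, Lor and Flg, 4 keratins of the epidermis and 2 proteins of its granular layer, were followed through spatial transcriptomes of mouse embryo and newborn esophagus. They were taken by symbol, and all 6 are among the 32285 genes of the count tables. The 4 sections came from untreated wild-type (WT) mice: 1 section through an embryo at embryonic stage E13.5, 1 through an embryo at E16.5, and 2 of esophagus dissected at birth (P0 replicates 1 and 2). All were fresh frozen, and the study as a whole concerns the development of the esophagus. The labels name no strain, no sex and no animal behind a section, so the spread between the P0 sections may be technical. A spot of the 10x Genomics Visium grid captures RNA from a small area of tissue that can hold several cell types. The embryo sections held skin, viscera and nervous tissue, whereas the P0 sections held the esophageal wall alone, so stage and tissue cannot be told apart between them. At a whole spot, fewer cells of a type and less RNA per cell cannot be told apart either.

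Stratified epithelia renew from a basal layer, marked by Krt5 and Krt14, and their cells change keratins as they move up. In epidermis the cells above the basal layer make the pair Krt1 and Krt10, and Krt2 and Krt77 are type II keratins of the same suprabasal cells. In the granular layer they add profilaggrin, the product of Flg that aggregates keratin filaments, and loricrin, the product of Lor that is the main protein of the cornified envelope. In the mouse embryo this programme is switched on in the skin late in gestation. The esophagus and the mouth use Krt13 and Krt4 above the basal layer instead, and the rodent esophagus also forms a cornified surface.

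Lor and Flg lie close together on chromosome 3 in the epidermal differentiation complex, Lor at chr3:92080271-92083142 and Flg at chr3:93273546-93293689 (GRCm38.p6). The Flg span overlaps the pseudogene Rplp0-ps1. Krt1 (chr15:101845426-101850786), Krt2 (chr15:101810689-101818956) and Krt77 (chr15:101858731-101869706) are neighbours in the type II keratin cluster. Krt10 (chr11:99385254-99397449) is in the type I cluster. RefSeq promoter entries matched 5 of the 6 members. The 250 bases before the listed start site are shown for the 4 matched members that were concentrated at the outer edge of the section at E16.5. Capitals mark the TATA box letters TATAAA, their variant in this search TATATA, and the letters of an AP-1 site, which are TGANTCA. The Lor stretch is chr3:92083143-92083392 (minus strand), that of Flg chr3:93273296-93273545 (plus strand), that of Krt10 chr11:99389365-99389614 (minus strand, inside the annotated span of the gene) and that of Krt77 chr15:101869706-101869955 (minus strand).
Lor: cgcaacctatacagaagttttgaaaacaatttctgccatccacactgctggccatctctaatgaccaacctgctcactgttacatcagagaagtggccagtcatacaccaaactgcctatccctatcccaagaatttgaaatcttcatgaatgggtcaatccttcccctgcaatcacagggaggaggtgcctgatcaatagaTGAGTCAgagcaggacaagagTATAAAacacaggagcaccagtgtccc
Flg: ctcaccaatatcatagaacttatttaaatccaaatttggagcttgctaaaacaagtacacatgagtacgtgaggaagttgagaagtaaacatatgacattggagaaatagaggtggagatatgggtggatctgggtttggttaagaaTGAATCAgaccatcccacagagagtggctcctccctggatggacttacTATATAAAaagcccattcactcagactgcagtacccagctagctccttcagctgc
Krt10: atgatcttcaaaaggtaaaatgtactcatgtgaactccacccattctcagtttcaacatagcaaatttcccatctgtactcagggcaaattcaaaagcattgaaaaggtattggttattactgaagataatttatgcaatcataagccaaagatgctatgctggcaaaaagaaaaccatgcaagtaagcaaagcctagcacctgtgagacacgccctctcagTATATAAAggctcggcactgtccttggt
Krt77: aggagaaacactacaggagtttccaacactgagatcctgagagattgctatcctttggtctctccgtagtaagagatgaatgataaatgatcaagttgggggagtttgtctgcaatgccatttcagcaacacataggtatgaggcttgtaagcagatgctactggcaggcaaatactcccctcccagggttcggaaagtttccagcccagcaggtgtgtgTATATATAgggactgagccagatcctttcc

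On either strand TATAAA was found in Lor (first base 27 bases before the start site), Flg (53 bases) and Krt10 (26 bases), and in 12.4% of 32851 promoters of the same length. TATATA was found in Flg, Krt10, Krt77 and Krt2, overlapping TATAAA in Flg and Krt10, and in 5.25% of promoters. TGANTCA was found in Lor, 48 bases before the start site, in Flg, 103 bases before it, and in 6.75% of promoters. The KLF-type letters CCACCC were in Flg and Krt10 and in 28.1% of promoters, and AACNGGTT, the letters of a Grhl site, were in none of the 5 and in 1.79% of promoters.

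Spots with at least 500 UMIs were used, 3220 at E13.5, 3588 at E16.5, and 363 and 264 in P0 replicates 1 and 2. Their median depths were 29289, 26702, 25465 and 25619 UMIs. Levels are given as UMIs per 1000000 UMIs (CPM). Ranges in parentheses are exact 95% intervals, Poisson for levels and Clopper-Pearson for shares, and reflect counting error alone. No test was possible between stages, because each embryo stage is a single section. Grid barcodes were shared by 2532 spots of the E13.5 and E16.5 sections, and by 345 and 238 spots of E16.5 and the P0 replicates.

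Krt1, Krt10, Krt77, Lor and Flg were highest at E16.5, and Krt2 was nearly silent throughout. Krt1, the type II partner of the spinous pair, stood at 10.1 CPM (9.47 to 10.7) at E13.5 and 82.3 CPM (80.6 to 84.1) at E16.5. In P0 replicates 1 and 2 it stood at 3.61 and 3.67 CPM. Krt10, its type I partner, stood at 47.1 CPM (45.8 to 48.5) at E13.5, 91.7 CPM (89.8 to 93.5) at E16.5, and 28.8 and 36.7 CPM at P0. Both were highest at E16.5 and lowest at P0, but the steps were far smaller for Krt10. Krt77 had 8 UMIs in the whole E13.5 section, 290 at E16.5, 1 in P0 replicate 1 and none in P0 replicate 2. Krt2, a keratin of the upper suprabasal layers, had 4 UMIs at E13.5, 2 at E16.5 and none at P0, and no fold is given for it.

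Of the granular layer proteins, Lor stood at 8.68 CPM (8.11 to 9.28) at E13.5, 139 CPM (137 to 142) at E16.5, and 9.84 and 9.65 CPM at P0. Flg had no UMI among 98643829 at E13.5, 2979 UMIs or 28.1 CPM (27.1 to 29.2) at E16.5, and no UMI in either P0 section. A count of 0 allows up to 0.0304 CPM at E13.5, 0.292 CPM in P0 replicate 1 and 0.408 CPM in P0 replicate 2. Lor at E13.5 and at P0 overlapped in their intervals, while Flg separated E16.5 from all other sections.

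**Figure D1:**
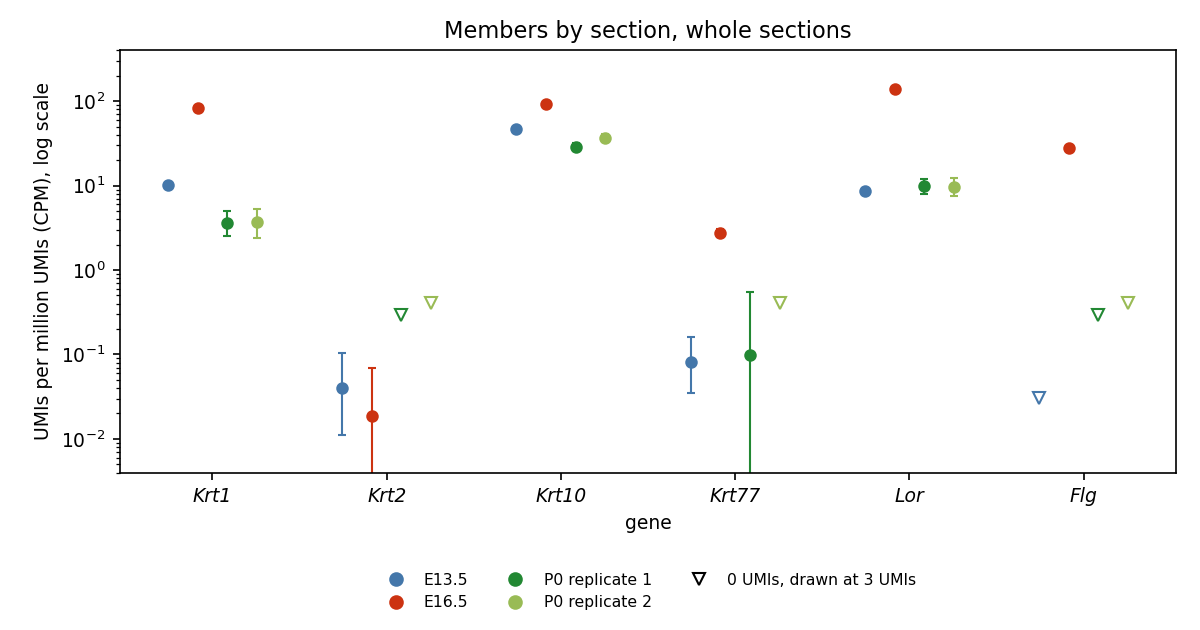
Level of each member in each section in CPM, on a log axis, with exact Poisson 95% intervals as bars; open triangles mark genes with 0 UMIs and are drawn at the level of 3 UMIs. E16.5 is the highest section for Krt1, Krt10, Krt77, Lor and Flg, and of these Krt10 differs least between sections.

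From E13.5 to E16.5, Krt1 was 8.16-fold higher (7.64 to 8.72), Krt10 1.95-fold (1.88 to 2.02), Krt77 33.8-fold (16.9 to 79.0) and Lor 16.1-fold (14.99 to 17.2). Flg was 926-fold higher against a floor of 3 UMIs in the section, with an exact lower limit of 752. With 0.5 CPM added to both levels, 4 of the 5 members tested were at least 4-fold higher at E16.5, Krt10 being the exception, beside 3.19% of 18900 genes. Of these 4, Flg (0 UMIs at E13.5) and Krt77 (8 UMIs) had enough UMIs to be tested only through E16.5, where they were high. The count therefore describes the members measured, and for Flg and Krt77 it is partly set by that filter. Krt5 and Krt14, the basal keratins, were 2.05-fold higher each (1.94 to 2.17 and 1.93 to 2.18). Against the P0 sections together, E16.5 was 22.7-fold higher for Krt1 (17.7 to 29.5), 2.85-fold for Krt10 (2.62 to 3.11) and 14.3-fold for Lor (12.3 to 16.7). Flg was 165-fold higher against a floor of 3 UMIs, with an exact lower limit of 134. Krt77, with its single UMI at P0, had a ratio of 48.3 (8.60 to 1913). Again 4 of 5 were at least 4-fold higher, beside 10.3% of 18156 genes. Here too Flg and Krt77 were tested only through their E16.5 UMIs, and neither had enough UMIs to be tested between E13.5 and P0. Between E13.5 and P0, 0 of 3 members tested passed 4-fold, beside 9.63% of 17763 genes: the ratio of E13.5 over P0 was 2.78 (2.16 to 3.63) for Krt1, 1.47 (1.34 to 1.60) for Krt10 and 0.889 (0.754 to 1.05) for Lor. Krt13, of the esophageal pair, was also higher at E16.5 than at E13.5 but highest at P0, unlike the members, with 0.284 CPM at E13.5, 173 CPM at E16.5 and 10591 and 10130 CPM at P0. With 2 CPM added in place of 0.5, Krt77 fell below 4-fold, at 1.19 on the log2 scale over E13.5 and 1.21 over P0.

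The share of spots with at least 1 UMI told less than the level. Krt10 was found in 63.8% of spots at E13.5 (62.1 to 65.5), 59.3% at E16.5 (57.7 to 60.9), and 52.6% and 58.3% at P0, so its share was not highest at E16.5 although its level was. With every spot thinned to 10000 UMIs and the 166, 450, 12 and 17 shallower spots left out, the Krt10 shares were 34.7%, 33.5%, 23.9% and 30.8%. Thinned to 5000 UMIs they were 18.3%, 20.1%, 17.6% and 15.9%, and E16.5 was then the highest. Krt1 was found in 22.2% of spots at E13.5, 39.4% at E16.5, and 8.26% and 9.85% at P0. Lor was found in 19.7%, 56.8%, 21.2% and 20.1% in the same order. Flg was found in 16.1% of the E16.5 spots (14.9 to 17.4), and its 0 of 3220 spots at E13.5 allows a share of up to 0.0932%. In the E13.5 liver-rich spots, the 2% of spots with the highest liver marker score (Alb 5663 CPM) and a tissue that should lack these keratins, Krt10 was still found in 26.6% of 64 spots at a median depth of 26288 UMIs, while Krt1 was found in 3.12% and Lor in 7.81%.

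At E16.5 the members were gathered at the outer edge of the section. Rows of spots were counted inward from the outer edge of the tissue, row 1 touching it. Rows 1 and 2 together hold 397 of the 3588 spots (11.1%) and held 68.7% of all member UMIs (68.2 to 69.1). At E13.5 the same rows hold 11.5% of spots and held 11.3% of member UMIs (10.5 to 12.1). Krt1 stood at 750 CPM (729 to 772) in row 1, 211 in row 2, 104 in rows 3 to 4 and 16.7 in rows 5 to 8. Krt10 stood at 698 CPM (678 to 719), 199.6, 103 and 35.3 CPM over the same rows. Each row inward was thus lower than the last for both. Krt77 stood at 28.0, 6.17, 2.90 and 0.749 CPM, Lor at 1511, 247, 105 and 30.7 CPM, and Flg at 326, 50.3, 20.9 and 5.38 CPM. From row 13 inward the levels were 24.5 CPM for Krt1, 38.1 for Krt10, 0.487 for Krt77, 37.4 for Lor and 5.06 for Flg, so Krt1 and Lor were somewhat higher there than in rows 5 to 8.

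Row 1 over rows 5 and deeper, on the log2 scale with 0.5 CPM added, came to 5.23 for Krt1, 4.25 for Krt10, 4.75 for Krt77, 5.53 for Lor and 5.92 for Flg. All 5 members tested were thus at least 4-fold higher in row 1, beside 1.22% of 17581 genes. Krt14 and Krt5, which mark the basal layer of internal epithelia too, came to 3.597 and 2.66, and Krt13 and Krt4 to -0.18 and -1.01. The same contrast at E13.5 was 3.85 for Krt14 and 3.03 for Krt5, so an outer epithelium was in that section, but -0.19 for Krt1, -0.26 for Krt10 and -0.60 for Lor. There 0 of 3 members tested passed 4-fold, beside 0.277% of 16946 genes. Over the row bands of the E13.5 section Krt1 ranged from 6.77 CPM (rows 9 to 12) to 15.9 CPM (rows 5 to 8), Krt10 from 37.3 to 57.3 CPM and Lor from 5.83 to 11.6 CPM.

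**Figure D2:**
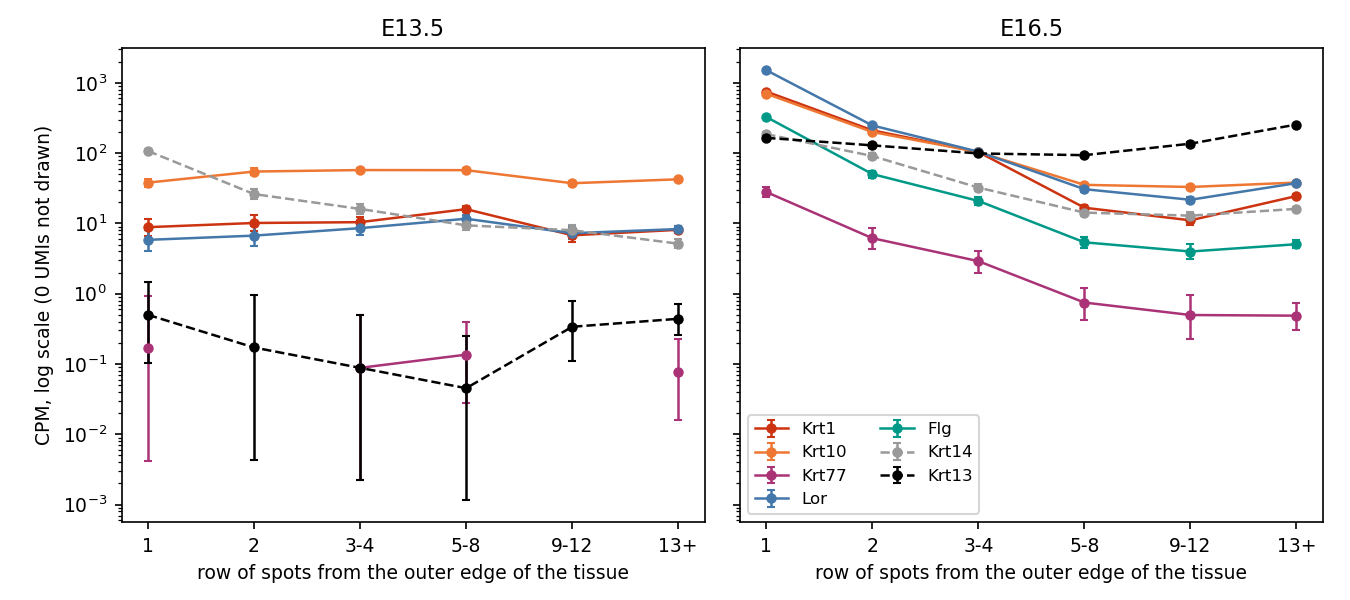
Level by row of spots from the outer edge of the tissue, in CPM on a log axis, with exact Poisson 95% intervals; dashed lines are Krt14 (basal) and Krt13 (mucosal) for comparison, and values of 0 are not drawn. At E16.5 the 5 members drop steeply from row 1 to rows 5 to 8, while at E13.5 Krt14 drops and Krt1, Krt10 and Lor do not.

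Only part of the outer edge of the E16.5 section carried the signal. Row 1 is defined by the grid and was not shown to be skin throughout: outside the strip described below it had 176 CPM of Krt13. The capture area also bounds the view. Of the spots used at E16.5, 90 lay on its border, and the strip reached grid row 0, so the tissue may continue past it. Of 223 row 1 spots, 69 (30.9%) had at least 10 member UMIs. Spots with at least 10 member UMIs numbered 272 and formed 44 connected patches, and a single strip of 179 spots along one side of the section held 74.0% of all member UMIs. Because the strip was drawn from the members' own counts, its values are a description. It lay in rows 1 to 7 and held 76.1% of the Krt1 UMIs of the section, 62.1% of Krt10, 76.9% of Krt77, 78.3% of Lor and 85.0% of Flg, but 37.8% of Krt5 and 1.16% of Krt13. Lor ranged from 0 to 1057 UMIs per spot of the strip with a median of 22, and Krt1 from 0 to 1123 with a median of 13. The highest spot had 3330 member UMIs. No spot reached 10 member UMIs at P0, where the highest had 8, and 35 of 3220 did at E13.5, where the highest had 15.

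Inside the strip the members were highest in row 1. In its 56 row 1 spots Lor stood at 8392 CPM, Krt1 at 4132, Krt10 at 3763, Flg at 1835 and Krt77 at 151 CPM. In its 52 row 2 spots they stood at 871, 761, 675, 188 and 21.8 CPM. The drop from row 1 to row 2 was thus larger for Lor and Flg, the granular layer genes, than for the spinous pair: per 1000 Krt1 UMIs, all row 1 spots of the section had 2014 Lor UMIs (1945 to 2086) and 435 Flg UMIs (413 to 458), against 1174 (1088 to 1267) and 239 (210 to 271) in row 2. Krt10 per 1000 Krt1 UMIs was 931 (893 to 970) in row 1 and 948 (875 to 1027) in row 2, with overlapping intervals. The ratios did not go on dropping with depth into the strip. Within it, Lor per 1000 Krt1 UMIs was 2031 (1960 to 2105) in row 1, 1144 (1056 to 1239) in row 2, 886 (795 to 986) in row 3 and 1727 (1446 to 2068) in rows 4 to 7. Flg was 444, 247, 201 and 399 per 1000 over the same rows. The deepest of these rows rest on 198 Krt1 UMIs. Along the strip, split into 4 parts by grid column, Krt1 was 2338 CPM and 2020 CPM in the outer parts and 572 and 410 CPM in the parts between. Lor was 2917 and 3616 CPM in those outer parts and 1668 and 1322 CPM between, and Flg 624, 411, 282 and 766 CPM in order along the strip. Krt5 followed with 475, 251, 200 and 330 CPM, and Col1a1, a collagen of the dermis, was 4346 to 7315 CPM in every part. The median depth was 17039 UMIs in the row 1 spots of the strip and 27505 in its row 2 spots.

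Beyond the strip the levels were low. A spot touching the strip has under 10 member UMIs by the way the strip was drawn. The step down at its edge is therefore set by that threshold. At 1 step away Krt1 was 32.1 CPM, Krt10 51.0, Lor 52.7 and Flg 9.05 CPM. At 11 or more steps, in 2849 spots, they were 21.1, 36.3, 32.5 and 4.39 CPM. The 160 row 1 spots lying 3 or more steps from the strip were far below it, at 26.7 CPM for Krt1 (22.4 to 31.6), 42.0 for Krt10 (36.5 to 48.0), 39.6 for Lor (34.2 to 45.5) and 4.02 for Flg. Their Krt1, Krt10 and Lor intervals lay just above the levels at 11 or more steps. Those spots also had little of the skin's other RNAs, with 23.3 CPM of Krt5, 24.5 of Krt14 and 2218 of Col1a1, against 895, 944 and 6689 CPM in row 1 of the strip.

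**Figure D3:**
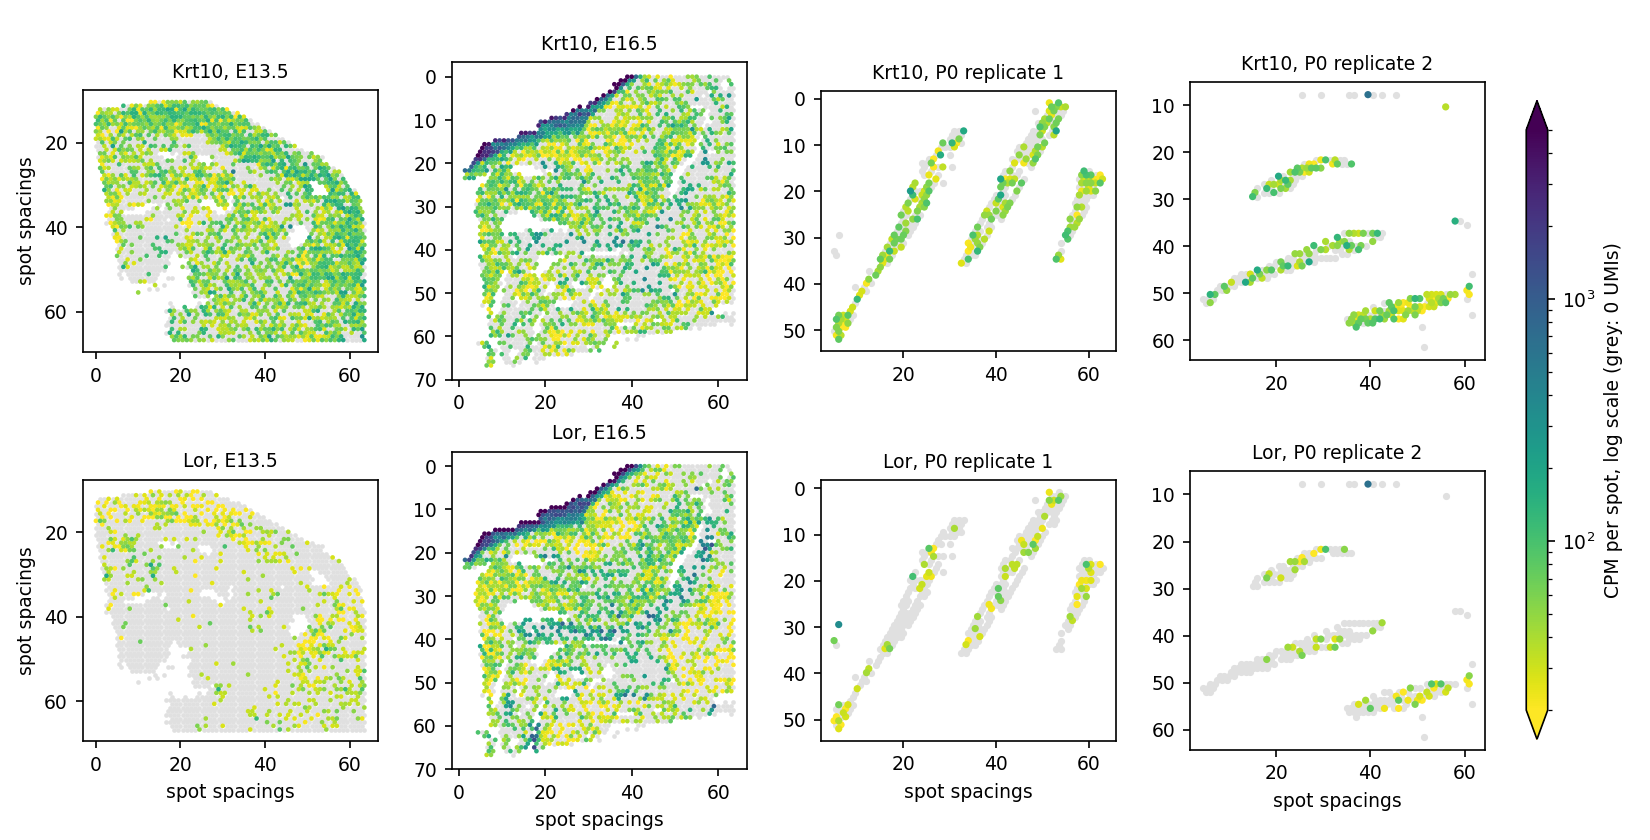
Spots of each section at their grid position (axes in spot spacings), coloured by Krt10 (top) or Lor (bottom) in CPM of the spot on a log colour scale, with grey for 0 UMIs. The dark strip along the upper left edge of the E16.5 section holds most UMIs of both genes, and no such strip is seen at E13.5 or P0.

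The members other than Krt2 varied together over the E16.5 spots. Pearson correlations of log(1 + UMIs per 10000) over 3588 spots ran from 0.63 (Krt10 with Krt77) to 0.78 (Lor with Flg). The spots share a library and differ in depth, so these are descriptions. At E13.5 the pairs of Krt1, Krt10 and Lor ran from 0.12 to 0.17, and at P0 from -0.02 to 0.28. Among 14349 genes with at least 200 UMIs, the nearest to Flg were Hrnr (0.86), a large keratohyalin protein of the same family, Lce1m (0.84), a late cornified envelope protein, and Calm4 (0.84), a calmodulin-like gene. Those nearest to Lor were Calm4 (0.82), Fam25c (0.79) and Hrnr (0.78). Krt1 and Krt10 shared Calm4 (0.81 and 0.76), Stfa3 (0.80 and 0.76), a cysteine protease inhibitor, and Hrnr (0.78 and 0.75). Krt77 was nearest to Flg2 (0.75), Hrnr (0.75) and Lce1a1 (0.75). Hrnr, Flg2 and Lce1a1 had 0 UMIs at E13.5 and at P0, as Flg did. Calm4, Stfa3 and Fam25c were present at P0, Fam25c at 43.8 and 20.8 CPM and Stfa3 at 16.4 and 13.3 CPM, so part of the set of genes around Lor and Krt1 was in the newborn esophagus.

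Other genes of cornification showed the same outer position at E16.5. Of the 30 cornified envelope and keratohyalin genes, 26 had the 20 UMIs needed, and 23 of these were at least 4-fold higher in row 1 than in rows 5 and deeper, with a median of 5.16 on the log2 scale beside 0.12 for all genes. A gene of this kind reaches 20 UMIs mostly through the rows where it is high, so the count describes those genes and not the list. The 4 with the highest E16.5 levels were Krtdap (4.50), Dmkn (2.95), Sbsn (2.90) and Hrnr (6.47). Of 21 barrier enzyme and lipid genes measured, 14 were at least 4-fold higher, among them the filaggrin-processing protease Asprv1 (4.61), while Ugcg (0.46), Elovl4 (1.23) and Klk8 (1.56) were not. Of 14 suprabasal adhesion genes 5 were, with Pkp1 at 2.23, Ppl at 1.67, Gjb6 at 0.93 and Jup at 0.57. Of 9 mucosal and wound keratins 3 were, but not the 4 most abundant, of which Krt17 came to 1.85 and Krt6a to 0.34. Of 8 hair follicle and appendage keratins 2 were (Krt79 at 2.51 and Krt80 at 2.01), and of 2 other epidermal keratins none, with Krt9 and Krt12 at 0.19 each. Of 29 keratinocyte transcription factors 5 were, and the 4 most abundant were not: Hopx -0.10, Cebpb -0.27, Maf 0.19 and Cebpa -1.17. Among protein-coding genes within 500 kb of a member that had the 20 UMIs, 15 of 19 around Flg and 6 of 8 around Lor were at least 4-fold higher in row 1, as were 4 of 26 around Krt1 and 1 of 13 around Krt10, beside the 1.22% of 17581 genes given above. The filter on low counts bears on these shares too, and their difference was not tested. Several genes around Flg and Lor, Hrnr and Flg2 among them, are also in the cornified envelope list, so those counts overlap.

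In mucosal epithelium of the E16.5 embryo Lor was above the other members, and most of its UMIs there came from a few spots. The 71 spots richest in Krt13 and Krt4 (Krt13 at 6151 CPM) had 94.8 CPM of Lor (79.4 to 112), beside 26.0 CPM of Krt1 (18.3 to 35.8), 34.4 of Krt10 (25.4 to 45.5) and 7.02 of Flg (3.37 to 12.9). Of the 135 Lor UMIs, 75 lay in the 6 spots of this class with at least 10 member UMIs, which had 15 Krt1, 2 Krt10 and no Flg UMIs. Without those 6 spots, an alternative chosen after seeing the data, Lor was 44.9 CPM (34.2 to 57.8) and Krt10 was 35.2 CPM (25.8 to 46.7). The spots were left out for member UMIs that were mostly Lor. A lower Lor level without them is therefore set by that choice and cannot show its level in mucosal epithelium. Per 1000 Krt1 UMIs the whole class had 3649 Lor UMIs (2520 to 5402) and 270 Flg UMIs (120 to 554). Their median depth was 17692 UMIs, and Lor in rows 5 and deeper was also higher in shallow spots, at 68.5 CPM in the 25% of spots with the lowest depth and 24.6 CPM in the 25% with the highest. Among spots of rows 5 and deeper in that lowest 25% of depth, Lor was 72.4 CPM (38.5 to 124) in the 17 Krt13 and Krt4-rich spots and 68.4 CPM (62.0 to 75.2) in the 703 others. Among the deeper-sequenced spots of those rows it was 44.7 CPM (33.3 to 58.6) in 48 Krt13 and Krt4-rich spots and 28.9 CPM (27.7 to 30.2) in 2110 others.

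In the other tissues of the E16.5 section the members were low but not absent. Heart-rich spots had 3.402 CPM of Krt1, 23.0 of Krt10, 10.7 of Lor and 1.83 of Flg. Neuron-rich spots were higher, with 40.2 CPM of Krt1 (32.6 to 49.1), 46.4 of Krt10 (38.2 to 55.9), 52.6 of Lor (43.9 to 62.6) and 6.22 of Flg (3.48 to 10.3). Epithelium-rich spots, the 2% highest in 10 general epithelial markers of which none is a member, had 1017 CPM of Krt1, 870 of Krt10, 1010 of Lor and 227 of Flg, but their median spot had 0 UMIs of Krt1 and Flg and 1 of Krt10 and Lor. Those means therefore rest on a few spots; the highest had 1123 Krt1 UMIs. With the highest 1% of spots, 35 in all, Krt1 stood at 30.8 CPM, Krt10 at 29.6, Lor at 101 and Flg at 7.39, below the rest of the section. The dermis-rich spots, 51 of 71 in rows 1 and 2, had 1059 CPM of Krt1 with a median of 13 UMIs per spot, and 1469 CPM of Lor with a median of 25.

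At E13.5, Krt1, Krt10 and Lor were spread thinly over the section, with no concentrated patch. The variance of their counts over that expected from depth alone was 1.09 for Krt1, 1.28 for Krt10 and 1.16 for Lor, against 11.99 for Krt5 and 12.9 for Krt14. Genes with similar numbers of UMIs had median ratios of 1.14, 1.17 and 1.14 for these members, and 1.14 for Krt5 and for Krt14. The members were thus ordinary in this respect. At E16.5 the same ratio was 193 for Krt1, 133 for Krt10, 312 for Lor and 74.3 for Flg. The E13.5 epithelium-rich spots, with 64 spots, had 17.3 CPM of Krt1 (11.3 to 25.4), 44.7 of Krt10 (34.6 to 56.7) and 1.33 of Lor (0.161 to 4.82). Krt1 was thus somewhat above its 10.1 CPM in the section, Krt10 did not differ from its 47.1 CPM beyond counting error, and Lor was below its 8.68 CPM. Neuron-rich spots had 19.2 CPM of Krt1 (14.8 to 24.4), 51.3 of Krt10 (44.0 to 59.5) and 15.04 of Lor (11.2 to 19.8). Lowest were the liver-rich spots, with 1.10 CPM of Krt1, 11.03 of Krt10 and 3.31 of Lor, and the heart-rich spots, with 1.48, 19.3 and 0.988 CPM. Dermis-rich spots had 5.001 CPM of Krt1, 39.0 of Krt10 and 4.001 of Lor, and Flg had no UMI in any of these classes.

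Depth and shared barcodes moved with these E13.5 levels. From the 25% of spots with the lowest depth to the 25% with the highest, Krt1 went from 5.01 to 14.8 CPM, Krt10 from 35.2 to 56.1 and Lor from 4.92 to 11.9, while Krt5 went from 42.4 to 9.48 CPM. The neuron-rich spots were deep, with a median of 52556 UMIs against 29289 in the section. At the barcodes of the 2% of E16.5 spots with most UMIs of the gene, the E13.5 section had 15.7 CPM of Krt1 (10.9 to 21.9) and 16.4 of Lor (11.3 to 22.9), against 9.76 (9.07 to 10.5) and 8.37 (7.73 to 9.05) at the other shared barcodes. At barcodes not over tissue at E16.5, Krt1 was 10.6 CPM and Lor 8.99 CPM. The part of depth and of shared barcodes in the E13.5 levels was not tested. Flg had 0 UMIs beside 995 Krt1 UMIs at E13.5, which allows 3.02 per 1000, whereas the E16.5 rows 5 and deeper, with Krt1 at 19.5 CPM, had 251 per 1000 (225 to 280). Krt10 per 1000 Krt1 UMIs was 4669 (4359 to 5005) at E13.5, 1856 (1746 to 1973) in those deep E16.5 rows and 931 in row 1.

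**Figure D4:**
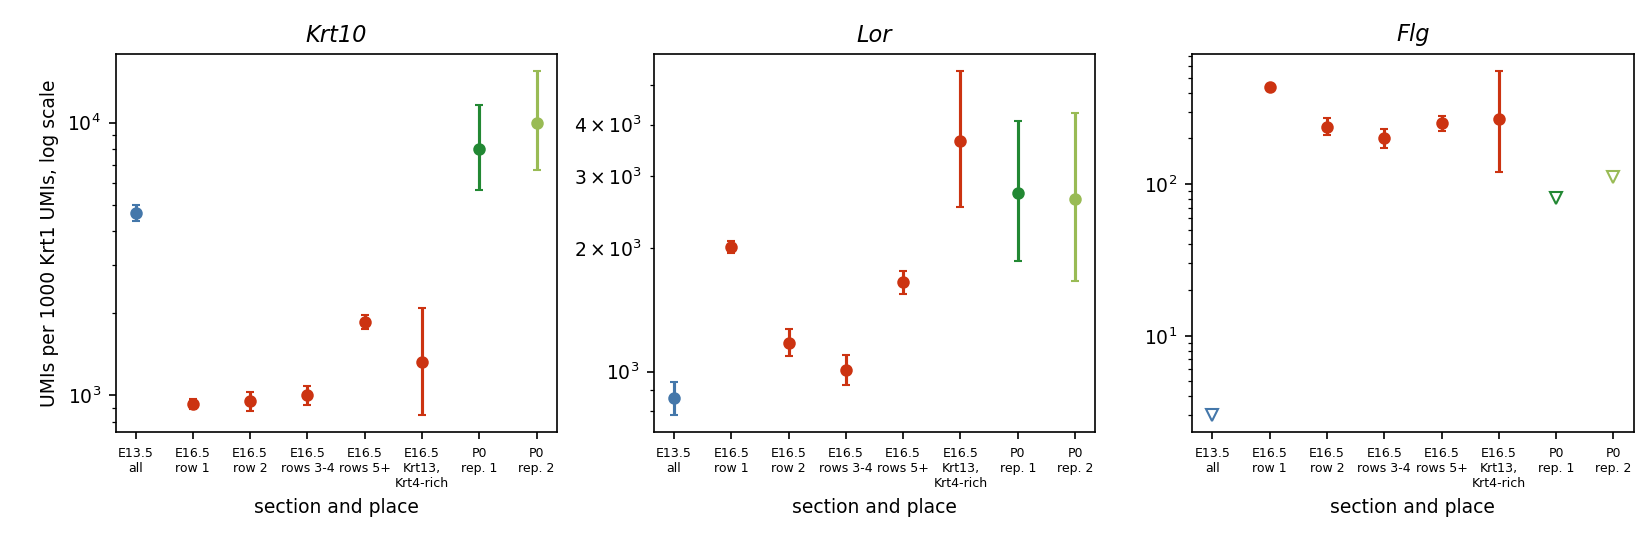
UMIs of Krt10, Lor and Flg per 1000 Krt1 UMIs by section and place, on log axes, with exact 95% intervals; open triangles mark 0 UMIs and are drawn at the limit that a count of 0 allows. Krt10 is highest relative to Krt1 at P0 and at E13.5, Lor in E16.5 Krt13 and Krt4-rich spots and at P0, and Flg is seen at E16.5 alone.

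In the P0 esophagus Lor followed the epithelium and Krt10 did not. In each section the 25% of spots highest in epithelial markers were compared with the 25% highest in muscle markers, and no spot was in both. Lor stood at 13.3 and 11.1 CPM in the epithelium-rich spots of replicates 1 and 2 (12.2 ± 1.55, SD, n = 2), and at 3.04 and 6.39 CPM in the muscle-rich spots (4.71 ± 2.37). Both epithelial values lay above both muscle values. In the spots of neither class Lor stood at 9.99 and 9.96 CPM. Lor was higher by 1.69 on the log2 scale (SE 0.38, adjusted p = 0.000604, edgeR quasi-likelihood test), with 1.03 without replicate 1 and 2.39 without replicate 2. The normalization of the fit (TMM) sets epithelium-rich over muscle-rich differences higher than the CPM values do, by 0.28 and 0.23 on the log2 scale in replicates 1 and 2. Krt10 stood at 28.2 and 39.3 CPM in epithelium-rich spots (33.8 ± 7.78) and at 27.9 and 40.2 CPM in muscle-rich spots (34.0 ± 8.75), so the groups overlapped. Its log2 difference was 0.24 (SE 0.18, adjusted p = 0.262). Krt1 stood at 3.26 and 2.78 CPM in epithelium-rich spots and at 1.01 and 2.55 in muscle-rich spots, with a log2 difference of 1.08 (SE 0.68, adjusted p = 0.187). That difference was 0.35 without replicate 1, 1.91 without replicate 2 and 0.47 with muscle-rich spots chosen by smooth muscle markers alone. Krt1 was highest in the spots of neither class, at 4.99 and 5.15 CPM. That order rests on few UMIs, as Krt1 had 37 and 27 UMIs in the whole sections.

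Of the 6 members 3 passed the filter on low counts in that comparison, and 1 of these was called higher and 0 lower, beside 26.8% of 12687 genes called higher and 29.5% called lower. The comparison itself told the tissues apart: Krt13 was higher by 3.52 (SE 0.12) and Krt4 by 3.50 (SE 0.12). Cornified envelope genes that passed the filter, 12 of 30, were called higher, 12 of 12, with Sprr3 (4.24), Dmkn (3.64), Sbsn (2.997) and Krtdap (1.09) among them; Sprr3 was chosen after its values were seen. Of 14 barrier enzyme genes 12 were called higher, among them Asprv1 (3.81), but not Ugcg (-0.13) or Elovl4 (-1.36). Of 12 suprabasal adhesion genes 12 were, Ppl by 3.29, of 8 mucosal and wound keratins 8, Krt6a by 3.70, of 5 appendage keratins 5, Krt80 by 3.42, and of 25 transcription factors 24, with Maf lower by -0.80. The median log2 difference was 3.62 for the envelope genes and -0.04 for all genes. Many genes pass the filter through the epithelium-rich spots alone, so these counts describe the genes measured.

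Within the P0 epithelium neither Krt10 nor Lor was called between upper-leaning and lower-leaning spots, in a split that separated some differentiation genes. The epithelium-rich spots were split into suprabasal-leaning and basal-leaning ones by mucosal suprabasal minus basal markers. Among Krt5, Krt14, Krt13 and Krt4, which all served in the split, only Krt14 passed (-0.82, adjusted p = 0.0147, edgeR quasi-likelihood test). By that test Krt13 came to 0.72 (adjusted p = 0.407), Krt4 to 0.64 (0.471) and Krt5 to -0.43 (0.324). Of genes that did not serve in the split, 4 of 10 cornified envelope genes were called higher, beside 3.71% of 10461 genes. So were 6 of 12 barrier enzyme genes, 3 of 12 suprabasal adhesion genes and 2 of 4 mucosal and wound keratins. Of appendage keratins 1 of 4 was, and of transcription factors 5 of 24. In each of these lists 0 were called lower. The fit left 1 residual degree of freedom. Lor stood at 15.8 and 10.2 CPM in the suprabasal-leaning spots and at 10.8 and 12.5 CPM in the basal-leaning ones. Krt10 stood at 25.6 and 34.0 CPM against 30.9 and 46.5 CPM. The groups overlapped for both genes, with log2 differences of 0.33 (SE 0.34, adjusted p = 0.673) for Lor and -0.21 (SE 0.22, adjusted p = 0.673) for Krt10 by the edgeR quasi-likelihood test. Of the 2 members that passed the filter 0 were called, beside 3.71% of 10461 genes called higher and 0.803% called lower, and 1971 genes had an unadjusted p under 0.05. Unadjusted p-values of that edgeR test were 0.350 for Lor and 0.351 for Krt10, and the DESeq2 fit gave both no adjusted p. Krt10 was found in 191 spots of P0 replicate 1 where 191 would hold it if its UMIs followed depth alone, and in 154 of replicate 2 where 156 would.

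**Figure D5:**
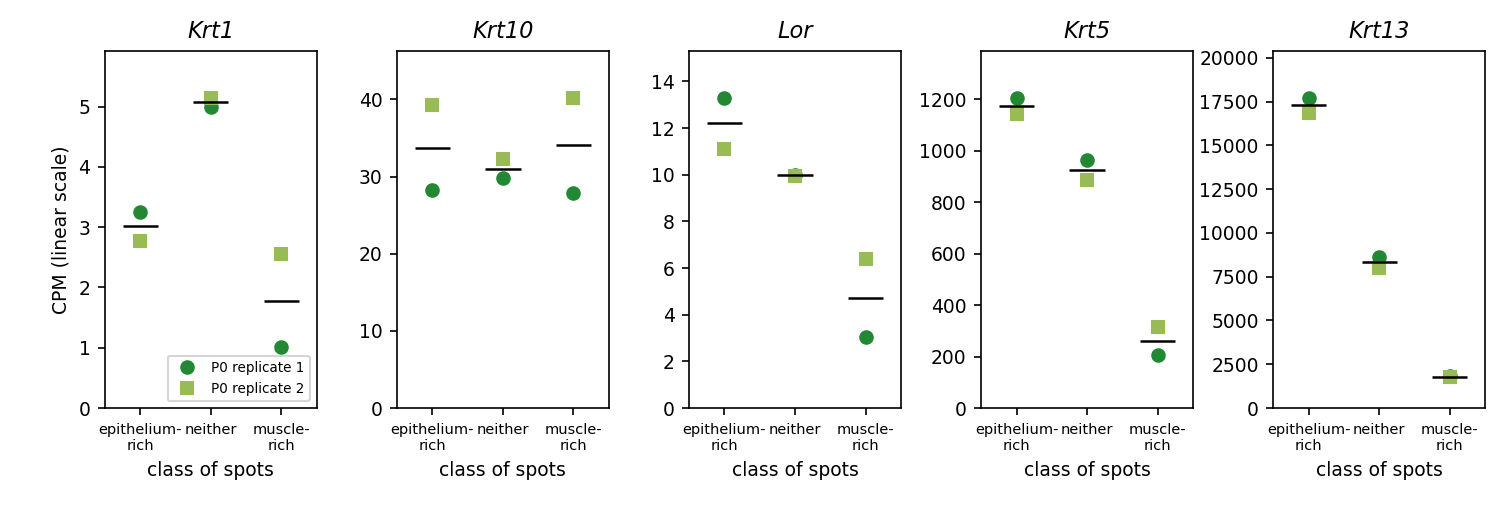
Level in epithelium-rich, muscle-rich and remaining spots of the 2 P0 sections in CPM, on linear axes from 0; points are replicates and lines their means. Lor, Krt5 and Krt13 are highest in epithelium-rich spots in both replicates, while Krt10 overlaps between classes. Krt1 is highest in the remaining spots, on few UMIs.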

How the data were processed

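Space Ranger 2.0.0 made the deposited counts, per the file headers: unnormalized UMIs of each gene at each spot under tissue. Per the submitters' processing notes, the authors used mm10. Per the labels' protocols, tissue was fresh frozen and libraries were made on 10x Genomics Visium slides. Groups follow the sample titles. The counts were used as deposited, and spots under 500 UMIs were left out.

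The 6 members and the gene and marker lists were chosen with earlier results of these data known. Named genes are the members, Krt5, Krt14, Krt13, Krt4, the 3 nearest genes of each member and the 4 most abundant of each list at E16.5; others are marked as chosen after their values were seen. Scoring markers hold no member. P0 sums per section and region were tested with edgeR 4.0.16 (quasi-likelihood, TMM normalization, filterByExpr, section as a block, Benjamini-Hochberg over all genes in the fit, threshold 0.05, R 4.3.3); DESeq2 1.42.0 was an alternative. The fits had 6 and 4 sums. The section is a block because regions lie within it. Folds without a test were called at 4-fold, with a pseudocount of 0.5 CPM, for genes with at least 20 UMIs in the sums compared. Depth limits the P0 values: 7356008 to 10260709 UMIs per section, against 98643829 and 105834164 in the embryo sections. RefSeq matched 26335 of 32285 symbols and 6 of 6 members; sequences are RefSeq's (GRCm38.p6). Tissue images and animals behind the sections were not used here.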

Additional observations from a re-analysis of the deposited data

Results flagged for a closer look

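Row 1 lay above rows 5 and deeper at E16.5 for Krt1, Krt10 and Lor, and slightly below them at E13.5. At E16.5 the log2 ratio of row 1 over those rows was 5.23, 4.25 and 5.53. At E13.5 it was -0.19, -0.26 and -0.60, where the median of all genes was -0.096 and none of these members passed 4-fold. The difference between the stages was not tested, since each has 1 section. Krt77 and Flg had too few UMIs at E13.5 to be compared.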

How the results depend on the processing

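The share of member UMIs in the outer rows at E16.5 was 56.9% for 1 row and 76.0% for 3 rows, 73.7% with rows counted from any off-tissue position, against 68.7% for 2 rows, which a higher minimum of UMIs per spot left at 68.7%. With the highest 1% of spots as epithelium-rich, 0 members were at least 4-fold higher than the rest of the E16.5 section, in place of 5, and the log2 ratios turned to -1.41 for Krt1, -1.62 for Krt10, -0.91 for Krt77, -0.47 for Lor and -1.87 for Flg; with the highest 5% they were 4.56, 4.05, 4.49, 4.93 and 5.02. Lor in the E16.5 Krt13 and Krt4-rich spots was 44.9 CPM without the class's spots of 10 or more member UMIs, in place of 94.8, a drop set by leaving out those spots. The DESeq2 Wald test called 4708 genes between P0 epithelium-rich and muscle-rich spots, in place of 7136. Between suprabasal-leaning and basal-leaning spots, where 472 were called, it called 116, no filter on low counts 775, and the highest 35% of spots 1406. Members called stayed at 1 and 0 in the alternatives run for these comparisons, except that the DESeq2 Wald test gave no adjusted p for the members in the second. Without the replicate block 6772 and 690 genes were called. The log2 difference of Lor between suprabasal-leaning and basal-leaning spots was -0.048 without P0 replicate 1 and 0.60 without replicate 2; leaving out a section leaves no residual degrees of freedom, so counts of calls were not run for it. Of 204 alternative values, 33 of those that answer a comparison and 120 others counted as unchanged. For counts this means close to the main value, and for shares and levels inside its interval. For folds it means the same sign and side of the threshold, or the same sign alone where no adjusted p was given. Of the rest, 9 that answer a comparison and 34 others moved, 6 reversed sign and 2 fell below the threshold. The limits are few: embryo stages rest on 1 section each and P0 on 2. Krt77 rests on few UMIs outside E16.5, Krt1 on few at P0 and Krt2 on few in every section.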
